A study of Mus musculus with 12 samples.

Results

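The peptides CGRP (calcitonin gene-related peptide) and adrenomedullin and their receptors were followed in spinal cord of mice with severe spinal muscular atrophy (SMA), given the antibiotic ceftriaxone or vehicle, and of wildtype mice. The gene set was named for this purpose as the ligand genes Calca, Calcb and Adm and the receptor genes Calcrl, Ramp1, Ramp2, Ramp3 and Crcp, 8 genes in all. It was chosen because the Ramp3 signal was high in SMA vehicle cord and the Calcb signal was low after ceftriaxone, so those differences are how the genes were picked and not findings. Of the 8 genes, 7 had at least 1 array probe set annotated to that gene alone, with 8 probe sets in all, out of 22626 probe sets for 12393 genes in the whole series. Calca is absent from the annotation used here, and 2 further probe sets that list Ramp2 together with another gene were not assigned. A filter on low signal kept 13575 probe sets, among them 6 for the gene set: Calcb, Calcrl, Ramp1, Ramp2, Ramp3 and Crcp. The probe set of Adm and a second one of Calcrl lay below it.

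CGRP is a vasodilator and neuromodulator peptide. It is made in spinal motor neurons, and it also reaches the dorsal horn in the endings of sensory neurons whose cell bodies lie outside the cord. Its receptor is a complex of the G protein-coupled receptor Calcrl with the small membrane protein Ramp1, whereas Calcrl with Ramp2 or Ramp3 forms receptors for adrenomedullin, a peptide of blood vessels. These receptors raise cAMP through the stimulatory G protein Gs.

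Cord RNA of 12 mice aged 13 days was measured, each on its own Affymetrix array after amplification, with 4 mice in each of 3 groups. The SMA ceftriaxone and SMA vehicle groups had the genotype SMN2+/+;SmnΔ7+/+;mSmn-/-, in which no mouse Smn allele is intact. The wildtype group was SMN2+/+;SmnΔ7+/+;mSmn+/-, so it carried the same human SMN2 and SMNΔ7 transgenes and a single intact mouse allele. On an FVB background, all belonged to a line that joins the transgene Tg(SMN2*delta7)4299Ahmb with the second transgene, Tg(SMN2)89Ahmb, and the disrupted mouse allele Smn1tm1Msd. Ceftriaxone was injected into the peritoneum at 200 mg/kg a day beginning on day 5, and the SMA vehicle and wildtype groups received vehicle. The labels speak of whole cords and also of lumbar segments without settling which was used, give no sex, and state that the mice had been perfused with fixative.

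Values are MAS5 signal intensities in arbitrary units, which rank arrays for 1 probe set and cannot be set against those of another. Smn1, the mouse gene disrupted in the SMA groups, had a signal of 7.28 ± 5.85 in SMA ceftriaxone, 4.23 ± 0.99 in SMA vehicle and 313 ± 70.1 in wildtype cord (SD, n = 4 each). The summed signal of 5 oligodendrocyte genes was 65680 to 71500 in SMA ceftriaxone, 21210 to 37810 in SMA vehicle and 55400 to 87420 in wildtype cord, and that of 6 general neuron genes was 41080 to 47230, 51060 to 58170 and 32890 to 48400 in the same order of groups. Among 8 motor neuron markers, Mnx1 stayed under 100 on every array. Wildtype array 2 stood apart by thymus genes: the summed signal of 7 of them was 30790 on that array and 136.5 to 258.7 on the other wildtype arrays. The signal of Xist, a transcript of female cells, exceeded 1000 on 4 of 4 SMA ceftriaxone, 2 of 4 SMA vehicle and 1 of 4 wildtype arrays. Because whole tissue was measured, fewer cells of a type and less RNA per cell cannot be told apart.

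Mouse promoter sequences were at hand for 5 of the 8 genes in RefSeq (GRCm38.p6), from 250 bases before to 50 after the start of the gene. They are shown for Ramp3, whose signal was highest in SMA vehicle cord, and for Ramp1 and Calcrl, the pair that forms the CGRP receptor, whose signals were higher after ceftriaxone than after vehicle, for Calcrl on the brighter of its 2 probe sets but not on the dimmer one. The Ramp3 window is chr11:6658283-6658582 on the plus strand, the Ramp1 window chr1:91179572-91179871 on the plus strand, and the Calcrl window chr2:84425217-84425516 on the minus strand. Capitals mark the GC box core GGGCGG and TGACG, part of the cAMP response element TGACGTCA, on either strand.
Ramp3: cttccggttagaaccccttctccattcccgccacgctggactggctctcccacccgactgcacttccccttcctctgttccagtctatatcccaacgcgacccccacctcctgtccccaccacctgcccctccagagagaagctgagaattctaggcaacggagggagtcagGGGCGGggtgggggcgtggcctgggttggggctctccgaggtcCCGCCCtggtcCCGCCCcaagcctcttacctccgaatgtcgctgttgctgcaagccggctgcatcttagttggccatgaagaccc
Ramp1: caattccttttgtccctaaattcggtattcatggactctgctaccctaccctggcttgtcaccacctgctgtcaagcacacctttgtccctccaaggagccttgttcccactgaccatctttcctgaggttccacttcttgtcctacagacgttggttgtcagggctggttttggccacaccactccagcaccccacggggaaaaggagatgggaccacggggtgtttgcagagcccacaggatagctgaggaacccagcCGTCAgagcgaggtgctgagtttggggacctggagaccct
Calcrl: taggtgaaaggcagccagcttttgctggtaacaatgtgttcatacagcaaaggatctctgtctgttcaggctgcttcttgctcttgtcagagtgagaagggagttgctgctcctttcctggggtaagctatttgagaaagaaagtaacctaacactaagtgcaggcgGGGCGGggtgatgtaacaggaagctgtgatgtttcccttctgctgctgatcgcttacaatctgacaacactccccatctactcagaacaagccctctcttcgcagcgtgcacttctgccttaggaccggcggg
The Ramp3 window held 3 GC box cores and a GC content of 63.7%, the Ramp1 window 0 and 55.7%, and the Calcrl window 1 and 50.7%, against a median GC content of 52.7% over 32851 promoters. GGGCGG was present in 35.7% of those promoters. TGACG was found 1 time in the Ramp1 window and in neither of the other windows, against 20.8% of all promoters with a match, and the full element TGACGTCA, found in 1.79% of all promoters, was in none of the 3. These are matches of letters in fixed windows and say nothing of binding.

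Among the ligands, Calcb, which encodes beta-CGRP, was lower in every SMA ceftriaxone cord than in any other cord. Its signal was 374.8, 296.8, 266.3 and 257.5 in SMA ceftriaxone cords. In SMA vehicle cords it was 444.0, 892.6, 741.1 and 463.3, and in wildtype cords 788.2, 527.4, 659.7 and 779.2. The SMA vehicle and wildtype values overlapped across most of their ranges, and the SMA vehicle mice were the most variable group, with a coefficient of variation of 34.4%. The group means were 299 ± 53.4 in SMA ceftriaxone, 635 ± 219 in SMA vehicle and 689 ± 122 in wildtype (SD, n = 4 each).

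**Figure D1:**
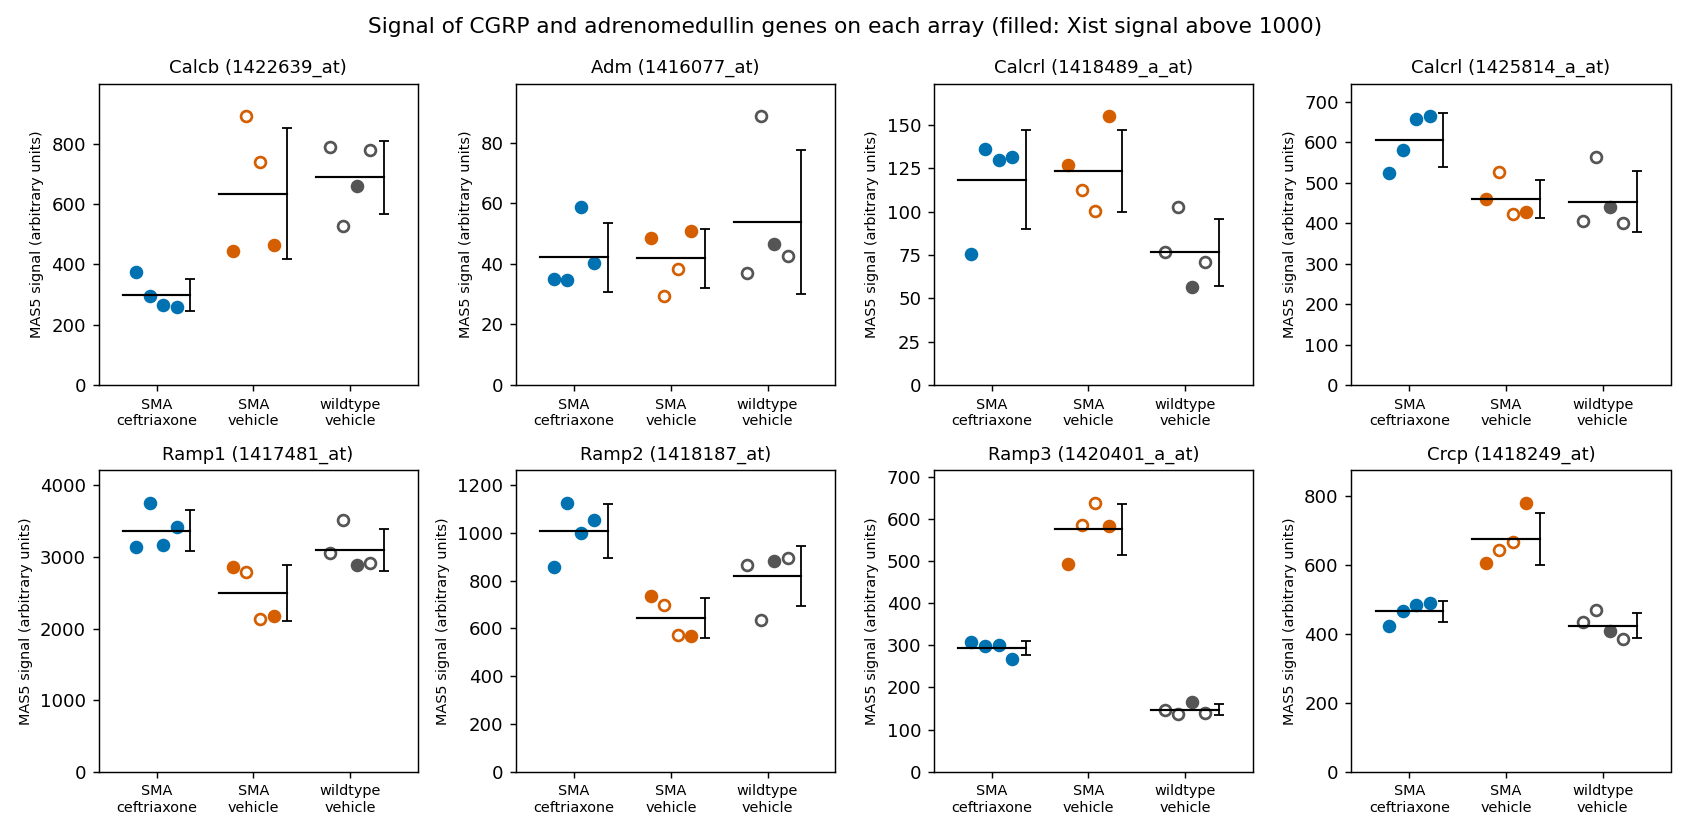
MAS5 signal (arbitrary units, vertical axis from 0) of the 8 probe sets on each array by group. Points are mice, filled where Xist signal exceeded 1000, horizontal lines are group means and bars are SD (n = 4). The Calcb points of the SMA ceftriaxone group lie between 257.5 and 374.8, under all others, and the Ramp3 points form 3 separate bands.

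On the scale of log2(signal + 16), used for all fold changes, Calcb in SMA ceftriaxone cord differed from wildtype by -1.16 ± 0.21 (SE; limma with Benjamini-Hochberg adjustment over all 13575 probe sets, adjusted p = 0.0122). This comparison shares arrays with both comparisons on which the genes were chosen and is therefore no independent evidence. With each array left out in turn the difference ran from -1.28 to -1.09 (limma, adjusted p 0.00436 to 0.0476). The descriptive differences were -1.0 ± 0.21 for SMA ceftriaxone over SMA vehicle and -0.16 ± 0.21 for SMA vehicle over wildtype.

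The Calcb level also moved with the Xist signal within the SMA vehicle group. The 2 SMA vehicle cords of high Xist signal had Calcb signals of 444.0 and 463.3, and the 2 of low Xist signal had 741.1 and 892.6. All 4 SMA ceftriaxone cords had high Xist signal, so their range of 257.5 to 374.8 stands next to the SMA vehicle pair at 444.0 and 463.3 and the single wildtype cord of that kind at 659.7. With log2 Xist signal as a covariate the difference of SMA ceftriaxone from wildtype was -0.83 (limma, adjusted p = 0.104), and among arrays of high Xist signal, which leave a single wildtype cord assumed to vary like the other groups, it was -1.12 (limma, adjusted p = 0.0687). The difference between SMA ceftriaxone and SMA vehicle was -0.75 with the covariate and -0.59 among arrays of high Xist signal. The part of the sex of the mice in the Calcb difference was not tested beyond these values.

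Genes of motor neurons were read beside Calcb. The summed signal of the 8 motor neuron markers, of which 4 passed the filter, was 2176 to 2298 in SMA ceftriaxone, 2755 to 3952 in SMA vehicle and 1961 to 3502 in wildtype cords. Prph, an intermediate filament gene of motor and sensory neurons, was 720.2 to 878.0 in SMA ceftriaxone and 988.1 to 1730.2 in SMA vehicle cords, a log2 difference of -0.64 (limma, adjusted p = 0.0299). The Prph call was lost under 8 of 22 alternatives, among them Xist signal as a covariate and leaving out array 2, 3 or 4 of either SMA group. Against wildtype cords, at 778.0 to 1555.8, the Prph difference of SMA ceftriaxone was -0.47 (limma, adjusted p = 0.229). Ret, a receptor for glial cell line-derived growth factors, likewise fell by 0.54 on the log2 scale in SMA ceftriaxone cord relative to SMA vehicle (limma, adjusted p = 0.0102). Ret was 0.60 higher in SMA vehicle than in wildtype cord (limma, adjusted p = 0.00396), and SMA ceftriaxone over wildtype gave 0.05 (adjusted p = 0.881). Slc18a3, the vesicular acetylcholine transporter, was 457.7 to 521.8 in SMA ceftriaxone and 537.2 to 750.0 in SMA vehicle cords (limma, adjusted p = 0.162). Its wildtype range, 410.1 to 754.9, spanned both. Slc5a7, the remaining tested marker, was 131.8 to 189.0 in SMA ceftriaxone, 153.9 to 237.8 in SMA vehicle and 174.6 to 261.9 in wildtype cords. Its log2 difference was -0.18 for SMA ceftriaxone over SMA vehicle and -0.14 for SMA vehicle over wildtype (limma, adjusted p = 0.427 and 0.526). The part of motor neuron content in the Calcb difference was not tested. Of 9 sensory ganglion markers, 5 had a probe set, and Scn10a, Scn11a, Avil and P2rx3, which mark cell bodies of sensory ganglia, were under 100 on every array. Tac1, the substance P precursor gene and the fifth of them, which spinal neurons also express, was 1764.5 to 2487.8 in SMA ceftriaxone, 2775.6 to 3549.8 in SMA vehicle and 1381.3 to 2208.0 in wildtype cords. Its log2 difference was -0.58 for SMA ceftriaxone over SMA vehicle and 0.84 for SMA vehicle over wildtype (limma, adjusted p = 0.012 and 0.000764), and 0.26 for SMA ceftriaxone over wildtype (adjusted p = 0.408). The part of sensory neuron RNA in the Calcb difference was not tested.

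The gene whose signal followed Calcb most closely over the 12 arrays was Chodl, a marker of fast motor neurons in the mouse (Pearson r = 0.91). Chodl was 404.2, 217.8, 328.0 and 190.0 in SMA ceftriaxone cords. It was 639.8, 1012.7, 884.9 and 702.5 in SMA vehicle cords and 921.9, 576.7, 543.8 and 735.2 in wildtype cords. Like Calcb, Chodl was lower in all SMA ceftriaxone cords than in any other. Its highest values in the SMA vehicle group fell on the same arrays 2 and 3, which are those of low Xist signal. Chodl was picked for its likeness to Calcb over the same arrays, so the shared pattern is no separate evidence. Next came Mrrf (r = 0.909) and Mettl1 (r = 0.876). Without wildtype array 2 these coefficients were 0.91, 0.911 and 0.88. They describe arrays that share their groups.

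**Figure D2:**
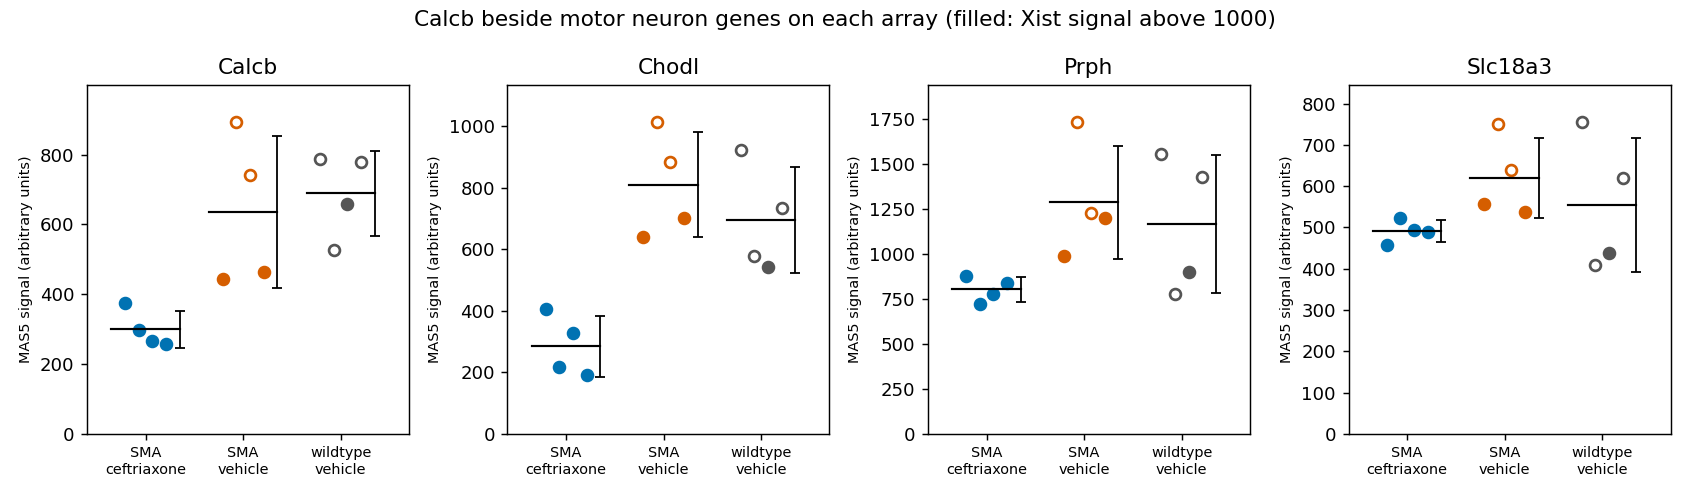
MAS5 signal (arbitrary units) of Calcb, of its closest neighbour Chodl and of the motor neuron genes Prph and Slc18a3 on each array. Points are mice, filled where Xist signal exceeded 1000, lines are group means and bars are SD (n = 4). Calcb and Chodl separate the SMA ceftriaxone group from both others, whereas the Prph and Slc18a3 ranges of SMA ceftriaxone overlap with those of wildtype.

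Adm, the adrenomedullin precursor gene, was dim, and its values overlapped in the 3 groups. It was 35.1, 34.6, 58.8 and 40.2 in SMA ceftriaxone, 48.6, 29.5, 38.3 and 50.8 in SMA vehicle, and 36.9, 88.8, 46.4 and 42.6 in wildtype cords. The highest value was that of wildtype array 2. The log2 difference was 0.01 ± 0.23 for SMA ceftriaxone over SMA vehicle and -0.23 ± 0.23 for SMA vehicle over wildtype, below the filter and without a test.

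Ramp3, which turns Calcrl into an adrenomedullin receptor, separated all 3 groups. Its signal was 307.0, 299.3, 300.8 and 268.3 in SMA ceftriaxone, 493.6, 585.2, 638.1 and 582.4 in SMA vehicle, and 145.5, 138.1, 166.6 and 139.3 in wildtype cords. No 2 groups overlapped, and the SMA ceftriaxone cords lay in the gap between the others. The SMA vehicle mean was 575 ± 59.9 and the wildtype mean 147 ± 13.2 (SD, n = 4 each), a descriptive log2 difference of 1.85 ± 0.10. SMA ceftriaxone, at 294 ± 17.4, differed from SMA vehicle by -0.93 ± 0.10.

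Ramp3 was thus still above wildtype after ceftriaxone. The log2 difference of SMA ceftriaxone over wildtype was 0.93 ± 0.10 (limma, adjusted p = 0.00155), with the same limit that its arrays were used in choosing the gene. With each array left out in turn the difference stayed between 0.90 and 0.98 (limma, adjusted p 0.0011 to 0.00744), and with Xist as a covariate it was 0.95 (adjusted p = 0.0148). Among arrays of high Xist signal it was 0.76 (limma, adjusted p = 0.0908).

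Bex1, Zic1 and Amn had the patterns most like that of Ramp3 over the 12 arrays, with r of 0.989, 0.988 and 0.987. Zic1, a transcription factor of the dorsal neural tube, averaged 1753 ± 113 in SMA ceftriaxone, 3374 ± 394 in SMA vehicle and 1036 ± 85.7 in wildtype cords (SD, n = 4 each). Bex1, a small protein of developing neurons, averaged 7522 ± 674, 10820 ± 392 and 5349 ± 162 in those groups. Each of the 3 genes showed the same order of groups as Ramp3, with no overlap between any of them. The 3 were picked for this likeness over the same arrays, so the shared order is no separate evidence.

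Ramp1, the partner that makes Calcrl a CGRP receptor, and Ramp2, the main vascular partner for adrenomedullin, had their lowest group means in SMA vehicle cord, where that of Ramp3 was highest. Ramp1 was 3134.4, 3758.1, 3166.6 and 3412.9 in SMA ceftriaxone, 2865.7, 2794.4, 2136.8 and 2177.1 in SMA vehicle, and 3056.5, 3519.7, 2894.5 and 2920.8 in wildtype cords. All SMA vehicle values lay under those of both other groups, which overlapped with each other. The log2 difference was 0.44 ± 0.11 for SMA ceftriaxone over SMA vehicle and -0.32 ± 0.11 for SMA vehicle over wildtype. Between SMA ceftriaxone and wildtype it was 0.12 ± 0.11 (limma, adjusted p = 0.587).

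Ramp2 was 858.8, 1126.0, 999.6 and 1051.9 in SMA ceftriaxone cords. It was 733.6, 697.1, 571.0 and 570.2 in SMA vehicle and 863.7, 634.2, 882.3 and 896.2 in wildtype cords. The SMA ceftriaxone and SMA vehicle values did not overlap, and wildtype array 2, the array with thymus transcripts, fell within the SMA vehicle range. The log2 difference was 0.64 ± 0.13 for SMA ceftriaxone over SMA vehicle. For SMA vehicle over wildtype it was -0.34 ± 0.13, and -0.45 without wildtype array 2. SMA ceftriaxone over wildtype gave 0.30 ± 0.13 (limma, adjusted p = 0.209).

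Calcrl, the shared receptor, was read by probe sets that disagreed. The brighter one was 524.7, 580.6, 657.0 and 665.4 in SMA ceftriaxone, 460.7, 527.3, 423.5 and 427.9 in SMA vehicle, and 406.5, 562.8, 440.7 and 401.6 in wildtype cords. Here 3 of the 4 SMA ceftriaxone cords were above every other cord, the remaining one at 524.7 lay under the top values of both other groups, and the SMA vehicle and wildtype ranges overlapped throughout. The difference of SMA ceftriaxone from wildtype was 0.42 ± 0.12 (limma, adjusted p = 0.0754), and without wildtype array 2 it was 0.52 (adjusted p = 0.00928). SMA ceftriaxone over SMA vehicle gave 0.39 ± 0.12, and SMA vehicle over wildtype 0.03 ± 0.12.

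The dimmer Calcrl probe set was 75.9, 136.5, 130.1 and 131.5 in SMA ceftriaxone, 126.7, 112.3, 100.2 and 155.3 in SMA vehicle, and 76.5, 102.8, 56.3 and 71.2 in wildtype cords. With it the SMA ceftriaxone and SMA vehicle groups overlapped, and the wildtype values were mostly lower. Its log2 difference was -0.07 ± 0.21 for SMA ceftriaxone over SMA vehicle and 0.60 ± 0.21 for SMA vehicle over wildtype, below the filter and without a test. A direction for Calcrl between the SMA groups therefore rests on the brighter probe set alone.

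**Figure D3:**
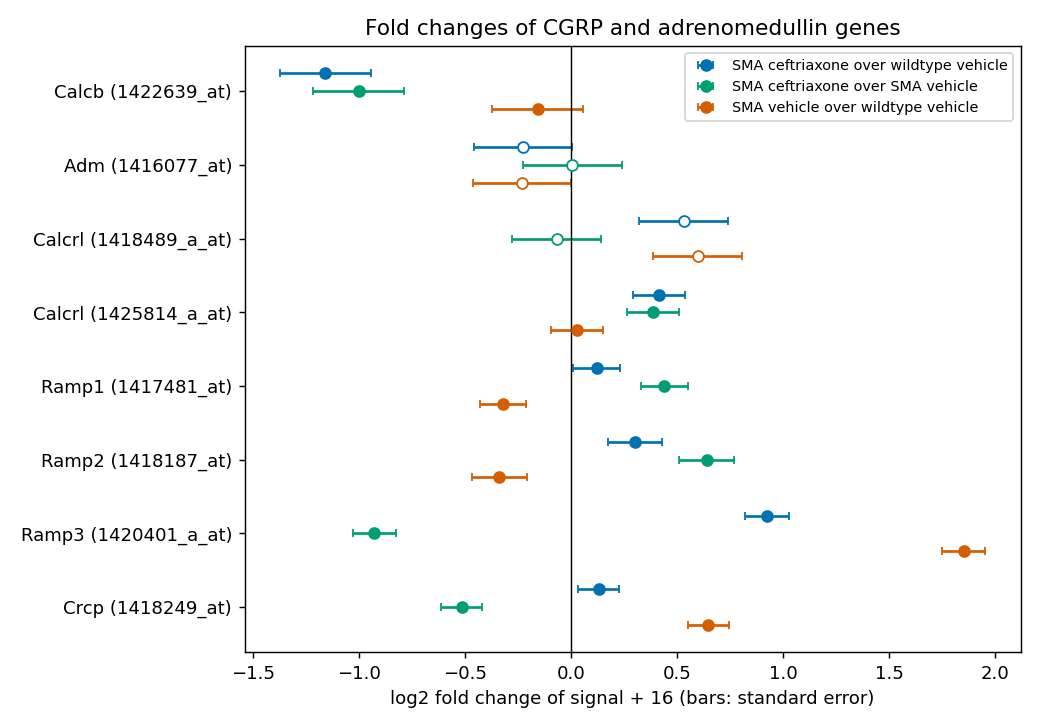
Log2 fold change of signal + 16 (horizontal axis) for the 8 probe sets in the 3 comparisons, with standard errors as bars and hollow points for probe sets below the filter on low signal. Ramp3 shows the largest difference of the set at 1.85 for SMA vehicle over wildtype, and in both comparisons that include SMA vehicle Ramp1 and Ramp2 run opposite to Ramp3 and Crcp.

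Genes of blood vessels were read beside the receptor genes. The summed signal of 12 endothelial markers, of which 10 passed the filter, was 3796 to 4756 in SMA ceftriaxone, 2711 to 3834 in SMA vehicle and 3633 to 4935 in wildtype cords, and 4271 to 4935 in wildtype cords without array 2. Tek, an endothelial receptor kinase, differed by 0.77 for SMA ceftriaxone over SMA vehicle (limma, adjusted p = 0.0032) and by -0.76 for SMA vehicle over wildtype (adjusted p = 0.00218). Flt1, Cldn5, Emcn, Esam and Slco1a4 had the Tek directions and passed in both comparisons. Pecam1, Cdh5, Kdr and Egfl7 passed in neither, with 0.25, 0.45, 0.46 and 0.21 between the SMA groups (limma, adjusted p = 0.37, 0.077, 0.0881 and 0.427). The sum of 8 genes of mural cells, which wrap small vessels, was 3141 to 4516 in SMA ceftriaxone, 2071 to 2899 in SMA vehicle and 3910 to 4962 in wildtype cords. Rgs5, a marker of pericytes among them, differed by 0.88 and -1.13 on the log2 scale in those comparisons (limma, adjusted p = 0.000682 and 5.16e-05). The mural sums were lowest in the SMA vehicle group without overlap, but Rgs5 made up most of them. Without it the sums were 948.6 to 1183 in SMA ceftriaxone and 830.1 to 1177 in SMA vehicle cords, which overlapped, and 1217 to 1372 in wildtype cords. Of the other tested mural genes, Pdgfrb and Kcnj8 differed by 0.03 and -0.39 for SMA ceftriaxone over SMA vehicle (limma, adjusted p = 0.893 and 0.127). Acta2 and Abcc9 had the sign of Rgs5 there, at 0.42 and 0.28 (limma, adjusted p = 0.101 and 0.174). For SMA vehicle over wildtype, Acta2 and Abcc9 gave -0.70 and -0.32 (limma, adjusted p = 0.00771 and 0.104), and Pdgfrb and Kcnj8 -0.28 and -0.01 (adjusted p = 0.0738 and 0.967). The endothelial sums were lowest in the SMA vehicle group apart from SMA vehicle array 1, which overlapped with both other groups. Ramp3 had its highest signal there. The oligodendrocyte sum given above was also lowest in the SMA vehicle group, and the neuron sum was highest there. The neuron genes disagreed, with SMA vehicle over wildtype at 1.99 for the growth cone gene Gap43 (limma, adjusted p = 8.6e-07) and at -0.17 for Snap25 and -0.18 for Nefl (adjusted p = 0.23 and 0.273). Syt1, Tubb3 and Stmn2 also rose in that comparison, by 0.99, 0.83 and 0.55 (limma, adjusted p = 5.22e-05, 0.000146 and 0.00037). Without Gap43 the neuron sums overlapped, at 38100 to 43270 in SMA ceftriaxone, 42800 to 47470 in SMA vehicle and 30750 to 45840 in wildtype cords. The sum of 6 genes of leptomeninges and fibroblasts was 4824 to 6813 in SMA ceftriaxone, 6846 to 9033 in SMA vehicle and 4955 to 6693 in wildtype cords, highest in SMA vehicle like Ramp3 and Crcp. These 6 genes disagreed for SMA vehicle over wildtype, with Igf2 at 1.05 and Lum at -0.70 (limma, adjusted p = 0.000764 and 0.0314). Col1a1, Ptgds and Col1a2 gave 0.37, 0.60 and 0.09, and Dcn gave -0.68, none of them past the threshold. The summed signal of 8 skeletal muscle genes was 327.1 to 839.1 in SMA ceftriaxone, 2585 to 6173 in SMA vehicle and 660.5 to 1774 in wildtype cords. The part of these cell types in the receptor differences was not tested.

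**Figure D4:**
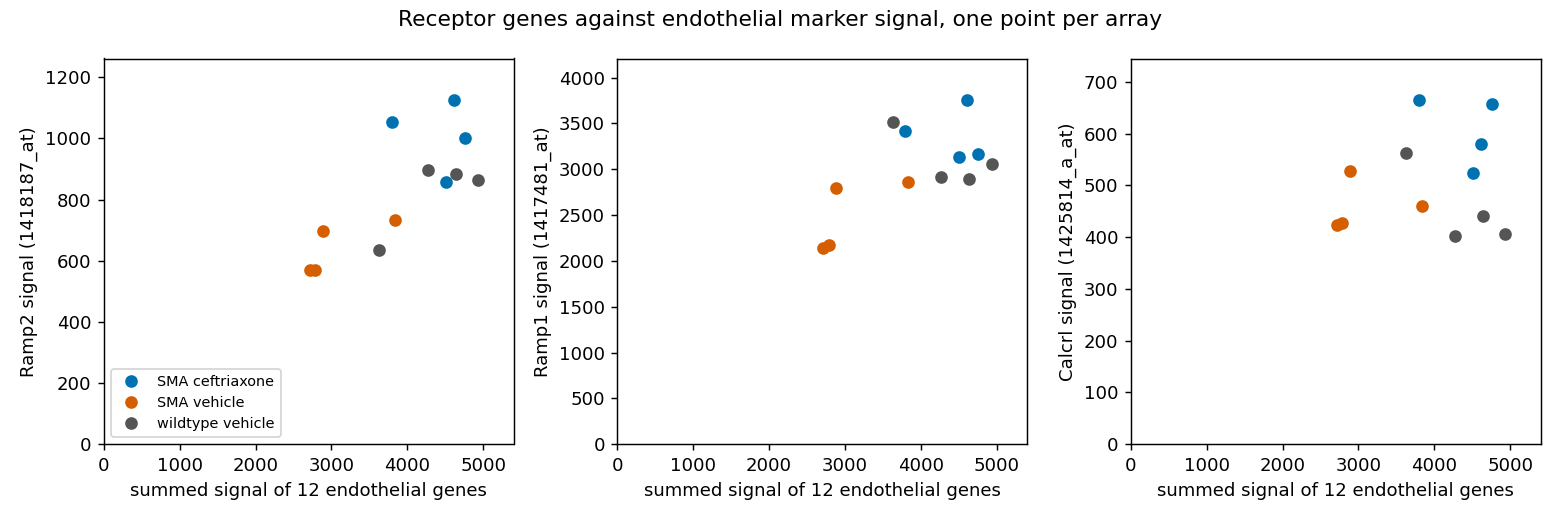
Signal of Ramp2, Ramp1 and the brighter Calcrl probe set (vertical axes) against the summed signal of 12 endothelial genes (horizontal axis), all in arbitrary units, with 1 point per array. The SMA vehicle arrays sit at endothelial sums of 2711 to 3834 and at the lowest Ramp1 values, and the Calcrl points of wildtype stay between 401.6 and 562.8 at sums of 3633 to 4935.

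The nearest patterns to Ramp2 were those of Scrg1 (r = 0.974), Fyn (r = 0.973) and S100a1 (r = 0.972) over the 12 arrays. Scrg1 averaged 3814 ± 714 in SMA ceftriaxone, 2026 ± 403 in SMA vehicle and 2982 ± 685 in wildtype cords (SD, n = 4 each). Ramp1 was followed most closely by Bnip2 (r = 0.936), Mylk, the myosin light chain kinase of smooth muscle (r = 0.93), and Erf (r = 0.92). The closest genes to the brighter Calcrl probe set were Dcxr (r = 0.912), Igbp1 (r = 0.893) and Polk (r = 0.89). As above, these coefficients describe arrays that share their groups.

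Crcp encodes a protein that couples the CGRP receptor to Gs signalling and is also a subunit of RNA polymerase III. It was 423.9, 465.7, 483.9 and 489.1 in SMA ceftriaxone, 605.8, 643.7, 667.6 and 781.2 in SMA vehicle, and 434.0, 469.7, 407.3 and 386.1 in wildtype cords. All SMA vehicle values were above those of both other groups, which overlapped. The log2 difference was -0.52 ± 0.10 for SMA ceftriaxone over SMA vehicle and 0.65 ± 0.10 for SMA vehicle over wildtype. SMA ceftriaxone over wildtype gave 0.13 ± 0.10 (limma, adjusted p = 0.495).

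The patterns nearest to Crcp were those of Meg3, an imprinted long noncoding RNA (r = 0.974), of Phax, an adaptor for nuclear export of small nuclear RNAs (r = 0.973), and of Lin7c (r = 0.972). Phax averaged 1020 ± 41.0 in SMA ceftriaxone, 1386 ± 121 in SMA vehicle and 961 ± 84.7 in wildtype cords (SD, n = 4 each). Meg3 averaged 984 ± 259 in SMA ceftriaxone, 3560 ± 1293 in SMA vehicle and 662 ± 80.0 in wildtype cords.

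By count, 2 of the 6 tested probe sets passed the threshold of an adjusted p of 0.05 between SMA ceftriaxone and wildtype, Ramp3 higher and Calcb lower, where 4.21% of all tested probe sets did, 3.29% higher and 0.928% lower. The groups did not overlap for those 2 members, and for 11.6% of all probe sets. The remaining 4, Calcrl, Ramp1, Ramp2 and Crcp, did not pass. Between SMA ceftriaxone and SMA vehicle 6 of 6 passed, with Calcrl, Ramp1 and Ramp2 higher and Calcb, Ramp3 and Crcp lower, beside 35.9% of all probe sets (18.3% higher, 17.7% lower). The groups did not overlap for 5 of the 6, against 45.3% of all probe sets. Between SMA vehicle and wildtype 4 of 6 passed, with Ramp3 and Crcp higher and Ramp1 and Ramp2 lower, beside 47.2% of all probe sets (24.9% higher, 22.3% lower), and the groups did not overlap for 3 of the 6, against 42.5%. Nothing is read from the counts of any of the 3 comparisons. The genes were picked on SMA ceftriaxone over SMA vehicle and on SMA vehicle over wildtype. SMA ceftriaxone over wildtype shares arrays with both, and its 2 called members, Ramp3 and Calcb, are the genes that prompted the choice.

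The single-gene calls between the SMA groups and of SMA vehicle over wildtype were unequal in how far they depended on single arrays. Calcrl was no longer past the threshold between SMA ceftriaxone and SMA vehicle without SMA vehicle array 3 or 4, or without SMA ceftriaxone array 3 or 4. For SMA vehicle over wildtype, 2 to 4 members were called as each array was left out in turn. The Ramp1 call was lost when array 3 or 4 of SMA vehicle or array 2 of wildtype was left out. The Ramp2 call held when the array left out was array 2 of wildtype, array 1 or 2 of SMA vehicle or array 1 of SMA ceftriaxone, and was lost without any other array.

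The genes around these receptors were described by lists covering peptide processing, receptor partners, clearance and signalling. Of 89 listed genes, 73 had a probe set and 61 passed the filter. Between SMA ceftriaxone and wildtype 2 rose and 0 fell, between SMA ceftriaxone and SMA vehicle 11 rose and 8 fell, and between SMA vehicle and wildtype 14 rose and 12 fell. The totals of 2, 19 and 26 of 61 are near the 4.21%, 35.9% and 47.2% called over all probe sets, so the counts of calls set these lists apart in none of the 3 comparisons. The median log2 difference of the 61 genes was 0.08, -0.04 and 0.11 in those comparisons, beside 0.01, -0.01 and 0.01 over all tested probe sets.

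Of 4 tested genes of related peptides and clearance, 2 rose in SMA ceftriaxone relative to SMA vehicle, and the same 2, Ackr3 and Mme, fell in SMA vehicle relative to wildtype. Over all probe sets 35.9% were called in the first of these comparisons and 47.2% in the second, the shares against which the counts of each list below stand. Ackr3, a scavenger receptor that takes up adrenomedullin, averaged 369 ± 42.3 in SMA ceftriaxone, 203 ± 27.3 in SMA vehicle and 389 ± 72.9 in wildtype cords (SD, n = 4 each). Its log2 difference was 0.82 ± 0.14 for SMA ceftriaxone over SMA vehicle (limma, adjusted p = 0.000869) and -0.88 ± 0.14 for SMA vehicle over wildtype (adjusted p = 0.000264). Mme, the peptidase neprilysin, rose by 0.49 ± 0.13 in SMA ceftriaxone over SMA vehicle (limma, adjusted p = 0.011), a call lost with Xist signal as a covariate. It differed by -0.39 ± 0.13 for SMA vehicle over wildtype (adjusted p = 0.0254), a call lost under 5 of 22 alternatives, among them leaving out array 2 or 3 of the SMA vehicle group or array 3 of the wildtype group.

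Of 8 tested genes of peptide processing, 2 rose and 1 fell in SMA vehicle relative to wildtype. Cpd, a carboxypeptidase of the secretory pathway, averaged 863 ± 74.6 in SMA ceftriaxone, 446 ± 59.0 in SMA vehicle and 1163 ± 297 in wildtype cords (SD, n = 4 each), with a log2 difference of -1.32 ± 0.17 for SMA vehicle over wildtype (limma, adjusted p = 4.65e-05). Qpct, which forms pyroglutamate at peptide ends, and Scg2, a granin of dense-core vesicles, rose by 0.92 ± 0.13 and 0.64 ± 0.14 in that comparison (limma, adjusted p = 7.94e-05 and 0.00207). Between SMA ceftriaxone and SMA vehicle, Cpd rose by 0.93 ± 0.17 (limma, adjusted p = 0.00118) and Qpct differed by -0.43 ± 0.13 (adjusted p = 0.019). The Qpct call was lost with Xist signal as a covariate, with quantile normalization, and without SMA vehicle array 3 or SMA ceftriaxone array 2.

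Among 18 tested genes of Gs and cAMP signalling, 4 rose and 3 fell in SMA vehicle relative to wildtype, and 2 rose and 2 fell in SMA ceftriaxone relative to SMA vehicle, beside 47.2% and 35.9% of all probe sets called. Gnas, the Gs alpha subunit, averaged 12080 ± 384 in SMA ceftriaxone, 11670 ± 418 in SMA vehicle and 12480 ± 1904 in wildtype cords and passed in neither comparison. Rapgef3, the cAMP sensor Epac1, averaged 307 ± 30.0, 160 ± 25.1 and 325 ± 45.4 in those groups (SD, n = 4 each). Prkar2a, a regulatory subunit of protein kinase A, averaged 335 ± 52.1, 688 ± 163 and 265 ± 25.0 in them. The Rapgef3 log2 difference was 0.89 ± 0.13 for SMA ceftriaxone over SMA vehicle and -0.96 ± 0.13 for SMA vehicle over wildtype (limma, adjusted p = 0.000304 and 7.46e-05). The corresponding Prkar2a differences were -0.99 ± 0.15 and 1.30 ± 0.15 (limma, adjusted p = 0.000405 and 2.21e-05). Akap12, a scaffold for protein kinase A, had the Prkar2a direction with -0.48 ± 0.07 and 0.65 ± 0.07 (limma, adjusted p = 0.000348 and 1.38e-05).

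Of 6 tested genes of receptor desensitisation and traffic, 3 rose and 0 fell in SMA vehicle relative to wildtype, beside 47.2% of all probe sets called. Arrb1 and Arrb2, the beta-arrestins that uncouple activated receptors, rose by 0.55 ± 0.10 and 0.51 ± 0.09 (limma, adjusted p = 0.000729 and 0.000317). Arrb2 fell by 0.36 on the log2 scale in SMA ceftriaxone relative to SMA vehicle (limma, adjusted p = 0.00615). Arrb1 was 0.44 ± 0.10 above wildtype in SMA ceftriaxone cord (limma, adjusted p = 0.0328). That call was lost under 13 of 22 alternatives, among them leaving out any 1 of the SMA ceftriaxone arrays, SMA vehicle arrays 2 or 3, or wildtype arrays 3 or 4. Among 3 other receptors known to pair with RAMPs, Adcyap1r1, the receptor for the peptide PACAP, rose by 0.46 ± 0.12 in SMA vehicle over wildtype (limma, adjusted p = 0.0061), and 0 passed between the SMA groups.

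Of 12 tested subunits of RNA polymerase III apart from Crcp, 2 rose and 2 fell in SMA vehicle relative to wildtype, and 2 rose and 3 fell in SMA ceftriaxone relative to SMA vehicle. Polr3e ran opposite to Crcp: it averaged 942 ± 611 in SMA ceftriaxone, 314 ± 33.8 in SMA vehicle and 715 ± 102 in wildtype cords (SD, n = 4 each). In the SMA ceftriaxone group array 4 read 1818.2 and the other arrays 488.1 to 897.3. Its log2 difference was 1.35 ± 0.31 for SMA ceftriaxone over SMA vehicle and -1.14 ± 0.31 for SMA vehicle over wildtype (limma, adjusted p = 0.00415 and 0.00749). Polr3f, Polr2h and Polr3c had the Crcp direction for SMA ceftriaxone over SMA vehicle, at -0.58, -0.35 and -0.37 (limma, adjusted p = 0.0175, 0.0315 and 0.0388). Those calls were lost under 2 of 21, 6 of 22 and 11 of 21 alternatives. Polr1d ran with Polr3e there, at 0.20 (limma, adjusted p = 0.0444). For SMA vehicle over wildtype, Polr2h and Polr2f rose like Crcp, and Polr3a fell like Polr3e. The median of the 12 subunits was 0.13 for SMA vehicle over wildtype.

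Of 10 tested hypoxia-induced genes, a class to which Adm belongs, 2 rose and 4 fell in SMA vehicle relative to wildtype, and 4 rose and 1 fell in SMA ceftriaxone relative to SMA vehicle, beside 47.2% and 35.9% of all probe sets called. Ndrg1, a stress-responsive gene that is also abundant in myelinating glia, averaged 1958 ± 450 in SMA ceftriaxone, 723 ± 56.5 in SMA vehicle and 2207 ± 597 in wildtype cords (SD, n = 4 each). Its log2 difference was 1.39 ± 0.19 for SMA ceftriaxone over SMA vehicle and -1.55 ± 0.19 for SMA vehicle over wildtype (limma, adjusted p = 0.000152 and 2.47e-05). P4ha1, a collagen prolyl hydroxylase, Slc2a1, the glucose transporter of vessels and glia, and Vegfa, a vascular growth factor, had the same directions, with differences of 0.68 ± 0.14, 0.84 ± 0.14 and 0.60 ± 0.13 for SMA ceftriaxone over SMA vehicle (limma, adjusted p = 0.00197, 0.000696 and 0.00385). Ldha, lactate dehydrogenase A, ran the other way, with -0.50 ± 0.17 for SMA ceftriaxone over SMA vehicle and 0.54 ± 0.17 for SMA vehicle over wildtype (limma, adjusted p = 0.0352 and 0.0188), and was named after its values were seen. The Ldha call between the SMA groups was lost under 10 of 22 alternatives, among them leaving out any 1 of the SMA vehicle arrays or array 2 or 4 of SMA ceftriaxone, and that of SMA vehicle over wildtype was lost under 3 of 23, among them leaving out array 3 or 4 of wildtype. Ddit4, an inhibitor of the mTOR pathway, was 1.44 ± 0.34 above wildtype in SMA ceftriaxone cord (limma, adjusted p = 0.0339). It was also 1.05 ± 0.34 above wildtype in SMA vehicle cord (limma, adjusted p = 0.0231), a call lost without wildtype array 4, and SMA ceftriaxone over SMA vehicle gave 0.40 ± 0.34 (adjusted p = 0.392). The Ddit4 call of SMA ceftriaxone over wildtype was lost under 10 of 22 alternatives, among them leaving out any 1 of the SMA ceftriaxone arrays, SMA vehicle arrays 2 or 3, or wildtype array 4. The order of the Ndrg1 means was that of the oligodendrocyte sums, and the part of those cells was not tested.

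**Figure D5:**
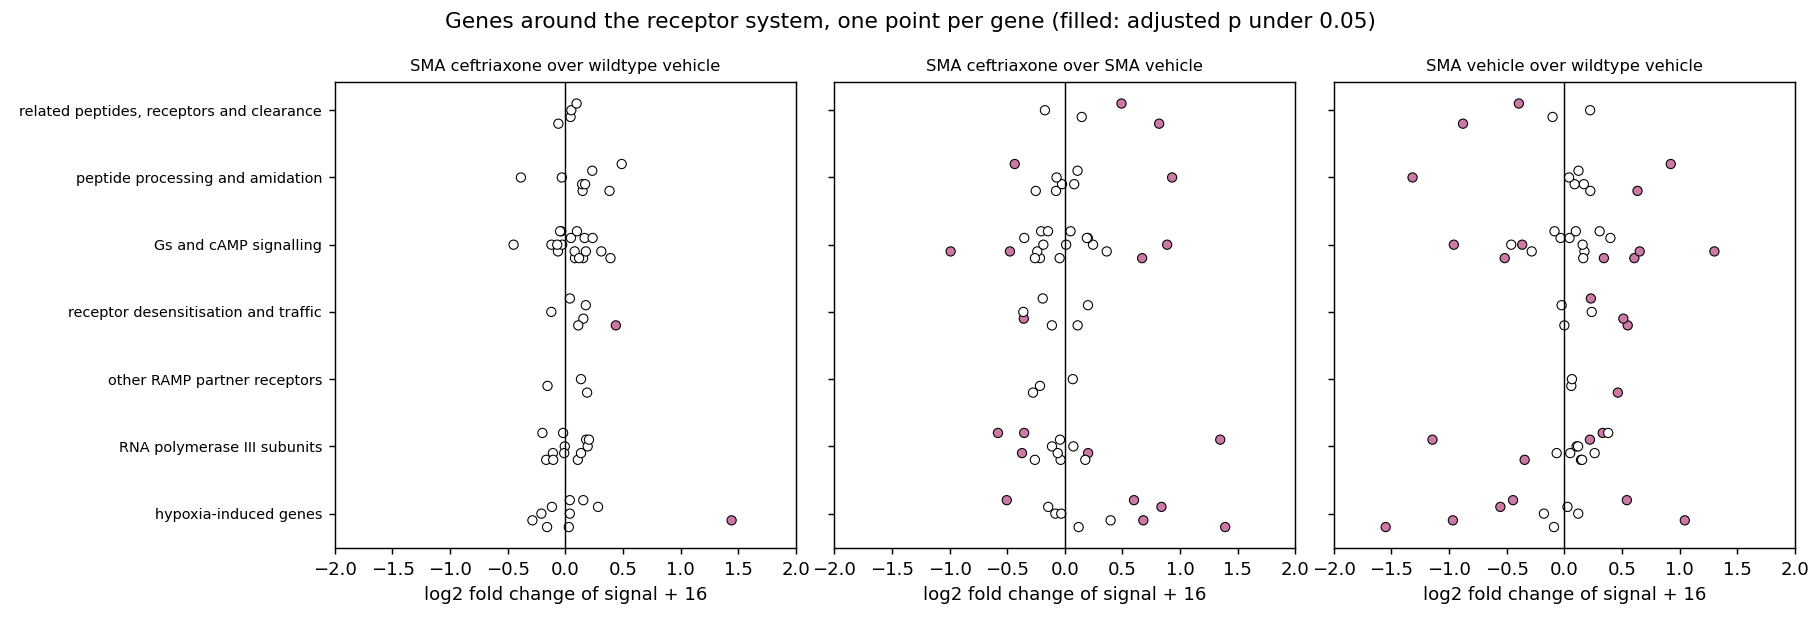
Log2 fold change of signal + 16 (horizontal axis) of the 61 tested genes of the lists around the receptor system in the 3 comparisons, with 1 point per gene, filled where the adjusted p was under 0.05. Filled points number 2 for SMA ceftriaxone over wildtype, 19 for SMA ceftriaxone over SMA vehicle and 26 for SMA vehicle over wildtype.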

How the data were processed

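The deposited values are linear signal intensities, 1 per probe set, which the authors made with MAS5, per the submitters' processing notes. The sources used here do not give its version. The mean without the extreme probe sets was 700.2 to 700.3 on all arrays, so the authors had scaled them. Detection calls were not used. Groups came from the labels. Of 22690 probe sets, 64 controls were removed, and 20393 had 1 gene symbol, 691 several and 1606 none in the platform annotation. For 20364 of those with 1 symbol, the symbol was taken through the gene identifier, whether or not it differed. The offset 16 was added before log2, so fold changes understate those of dim genes. Probe sets with a mean log2 value above the 40th percentile were kept (13575, geometric mean signal at the limit 125). A single limma model (version 3.58.1, R 4.3.3) with a term for each of the groups used all 12 arrays and left 9 residual degrees of freedom. Variances were moderated along the mean signal. The procedure was tested on simulated data. Tests are two-sided, with Benjamini-Hochberg adjustment over all kept probe sets and a threshold of 0.05. The labels do not say that replicates are more than separate samples, and each was taken as 1 mouse. P-values rest on the spread between arrays within groups, pooled over all 12 arrays. The number of arrays limits the precision.

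The members and all lists were chosen with earlier results of these data known. Members' p-values are not given for the comparisons that chose them. Each member was named, with at most the 4 genes of smallest p per list and comparison among those past the threshold. The 3 probe sets of highest Pearson correlation with each member were also named. So were marker genes that moved with a result and tested markers of the same lists that did not. Lists took the brightest kept probe set per gene. Settings tried in its place were quantile normalization, offsets of 1 and 64, centring on array medians, a filter at the 60th percentile or none, a fit restricted to the compared groups, Xist signal as a covariate, a block by replicate number, and each array left out. Only arrays of high or of low Xist signal (divided at 1000) was added after the data were seen.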

Additional observations from a re-analysis of the deposited data

Results flagged for a closer look

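Among 24 sets of 4 arrays (8 probe sets in 3 groups), 2 held an array far from the other 3 by Dixon's ratio, a rule by which chance marks about 1 set in 20. The dimmer Calcrl probe set had a signal of 75.9 on SMA ceftriaxone array 1, against 130.1 to 136.5 on the other 3 arrays of that group (ratio 0.915). Ramp2 had a signal of 634.2 on wildtype array 2, the array with thymus transcripts, against 863.7 to 896.2 on the other 3 wildtype arrays (ratio 0.893). Without that array the Ramp2 difference of SMA vehicle over wildtype was -0.45 in place of -0.34 on the log2 scale.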

How the results depend on the processing

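For SMA ceftriaxone over wildtype, where 2 members were called, 1 was called with a filter at the 60th percentile, which removes Ramp3, 1 with Xist as a covariate, and 0 among arrays of high Xist signal (limma, 3 at an unadjusted p under 0.05; that fit holds 4 SMA ceftriaxone arrays and 1 wildtype array). Of listed genes, 2 in that comparison, 1 was called with median centring, 1 with no filter, 1 with the replicate block, 1 among arrays of high Xist signal, and 0 by limma with only the groups compared (8 at an unadjusted p under 0.05) or with Xist as a covariate (7 at an unadjusted p under 0.05). For SMA ceftriaxone over SMA vehicle, 32 listed genes in place of 19 were called with only the groups compared. For SMA vehicle over wildtype, 2 members in place of 4 were called with only the groups compared, 2 among arrays of high Xist signal and 2 among those of low Xist signal, which left 8 listed genes in place of 26. The causes were not tested beyond what the settings themselves remove.

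As each array was left out in turn, members called ran from 2 to 3, 5 to 6 and 2 to 4 for SMA ceftriaxone over wildtype, SMA ceftriaxone over SMA vehicle and SMA vehicle over wildtype, and listed genes from 0 to 5, 14 to 31 and 20 to 32. The 31 came without wildtype array 2. The Calcb difference of SMA vehicle over wildtype reversed among arrays of low Xist signal (0.24), and that of the brighter Calcrl probe set reversed without wildtype array 1 (-0.017), wildtype array 4 (-0.023) or SMA vehicle array 2 (-0.037), with a highest value of 0.13 without wildtype array 2 and none of them past the threshold. Same-numbered arrays showed no strong shared deviation (correlations -0.143 to 0.133). Values this near 0 cannot exclude that the numbers pair mice with a small effect. With the replicate block, 2, 6 and 3 members and 1, 16 and 25 listed genes were called in the order of comparisons above. Of 1625 single-gene fold changes of tested probe sets under alternatives, 158 lost the threshold, 1 gained it and the 4 above reversed. Listed and marker genes entered this count only where the main setting called them, so only members could gain the threshold in it. Markers outside it gained calls too, such as Pdgfrb under 3 of 22 alternatives for SMA vehicle over wildtype. Untested values changed sign 10 times, 7 of them for Adm in SMA ceftriaxone over SMA vehicle (-0.19 to 0.08), 1 for Adm in SMA vehicle over wildtype and 2 for the dimmer Calcrl probe set in SMA ceftriaxone over SMA vehicle (-0.25 to 0.11). Dim signals limit what could be measured for Adm and the dimmer Calcrl probe set.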

Other observations

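Genes from the list of related peptides, receptors and clearance that lay below the filter were read as values only. Iapp, which encodes the related peptide amylin, is dim on all 4 of its probe sets. The one with the largest separation, chosen after its values were seen, read 36.0 to 65.9 in SMA ceftriaxone, 9.7 to 18.7 in SMA vehicle and 0.4 to 4.6 in wildtype cords, and another read 25.0 to 58.4, 8.2 to 11.6 and 0.8 to 8.5 in those groups. The groups did not overlap on the first of these, but all values lie far under the filter. On the other 2 Iapp probe sets the groups overlapped, except that 1 of them read 4.2 to 47.0 in SMA ceftriaxone and 0.9 to 2.6 in wildtype cords. Calcr, the calcitonin receptor, read 43.3 to 75.3 in SMA ceftriaxone, 66.1 to 93.2 in SMA vehicle and 33.0 to 65.0 in wildtype cords. Gpr182, another receptor on that list, read 38.1 to 44.8 in SMA ceftriaxone, 22.7 to 34.5 in SMA vehicle and 27.3 to 61.0 in wildtype cords.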
